A study of Mus musculus with 23 samples.

Results

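The 27 collagen genes described here encode the chains of collagen proteins that had at least 10 counts in 7 or more of 23 mice. They were chosen by symbol alone, as the letters Col, a type number, the letter a and a chain number, from the 18512 gene symbols of the count files. That pattern found 43 symbols, and the other 16 fell under the count rule. The rule itself uses no comparison of groups, but it and the gene lists below were set with earlier results of these data known. The study had already reported some of these genes as changed in the same mice. Counts of called genes are therefore a description and not independent support. The comparisons of day 7 and of day 14 use one set of 8 baseline mice. The mice were C57BL/6 of both sexes, 6 to 8 weeks old and 20 to 25 g in weight, with no engineered allele. Baseline mice (n = 8, 4 female and 4 male) had no injury. The other mice had acute pancreatitis from caerulein, a peptide that overdrives the secretion of digestive enzymes by pancreatic acinar cells, given by intraperitoneal injection at 50 µg/kg, 8 times a day at hourly intervals on 2 consecutive days. They were sampled at day 7 (n = 8, 4 female and 4 male) or day 14 (n = 7, 3 female and 4 male). RNA came from the head of the pancreas as whole tissue, so that fewer cells of a type and less RNA per cell cannot be told apart in any value below.

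A collagen molecule is a triple helix of chains. Fibrillar collagens (types I, III and V among them) form the tensile fibrils of connective tissue, and FACIT collagens sit on the surface of those fibrils. Type VI forms beaded filaments around cells, type IV forms the sheet-like network of basement membranes under epithelium and around vessels, and the multiplexins (types XV and XVIII) lie at the border between basement membrane and stroma. In the pancreas, stellate cells and fibroblasts are the known source of fibrillar collagen during scarring, and a transient deposit of matrix is a known part of repair after pancreatitis.

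The 43 symbols fell into 9 classes. Members of the count rule were 7 of 10 fibrillar symbols, 6 of 6 of type IV, 5 of 6 of type VI, 4 of 9 FACIT, 2 of 2 multiplexins, Col7a1 (the chain of anchoring fibrils), 1 of 3 of types VIII and X, 1 of 4 transmembrane collagens and 0 of 2 of types XXVI and XXVIII. Just inside the rule stood Col6a5 with at least 10 counts in 16 mice, and Col4a6 and Col8a1 in 17 mice each. Just outside stood Col6a4 and Col9a3, in 4 mice each. The other 14 symbols reached that count in at most 2 mice, among them both type XI chains, which are fibrillar collagens of cartilage, and Col10a1, the collagen of hypertrophic cartilage. All 27 members were among the 12500 genes that entered the test.

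Total counts ranged from 7059890 to 9567446 per mouse. In the study's mapping statistics, the day 14 libraries used here had a lower share of reads in 5′ untranslated exons than every baseline and day 7 library. This library difference cannot be told apart from time point, and its part in the day 14 values was not tested. Expression is given as normalized count, the count of a gene scaled by the TMM factor and the size of the library to the mean library. A gene was called changed where it passed both an adjusted p of 0.05 and a 1.5-fold difference in edgeR's quasi-likelihood test with Benjamini-Hochberg adjustment over all genes tested. Counts of genes with an unadjusted p under 0.05 are given without the share of all genes, so no excess can be read from them. Each log2 fold change is given with its standard error (SE). The 20 most abundant genes, mostly digestive enzymes, took 66.4% to 71.2% of a baseline library, 55.3% to 62.8% of a day 7 library and 63.9% to 66.2% of a day 14 library, so the choice of scaling bears on every value. With scaling by total counts in place of TMM factors, the median log2 fold change of all genes moved from 0.03 to 0.48 for day 7, and for day 14 from 0.02 to 0.22. Shares of all genes called are given with TMM factors only. Counts of genes called under total count scaling therefore have no matching share of all genes beside them. In 4 mice (5 at baseline, 10 and 15 at day 7, 21 at day 14) the summed normalized count of 8 lymphocyte genes was 1150 to 2132, against at most 413 in the other 19 mice. For the comparisons of day 7 and of day 14 with baseline, counts of called collagen genes are also given without these mice. For day 14 against day 7, for sex and for both interactions the count without them was 0, as with them.

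The genes that carry the main results lie on several chromosomes of GRCm38. Col3a1 (chr1:45311538-45349706, + strand) and Col5a2 (chr1:45374321-45503282, − strand) are neighbours whose 3′ ends face each other across 24614 bases. Col6a3 is at chr1:90765923-90843971 (− strand), Col6a1 at chr10:76708792-76726168 (− strand) and Col15a1 at chr4:47208161-47313167 (+ strand). Sequences at the gene starts are shown for the type IV pair that rose together at day 14 by the adjusted p and for the called genes with the largest change at each day. Col4a1 and Col4a2, the most abundant type IV chains, are transcribed away from each other on chromosome 8, and their annotated first exons share 22 bases on opposite strands. These bases, chr8:11312805-11312826 on the + strand, belong to both transcripts and are shown with the GGGCGG box in capitals.
Col4a1 and Col4a2: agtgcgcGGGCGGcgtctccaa
The pairs Col4a4 with Col4a3 and Col4a6 with Col4a5 are arranged head to head in the same way, with gaps of 71 and 1308 bases. For Col3a1, the most abundant fibrillar gene and, with Col5a2, the member of largest log2 fold change at day 7, the 250 bases before the RefSeq start (chr1:45311288-45311537, + strand) hold the letters TATAAA 117 bases upstream, in capitals. Whether they act as a TATA box was not tested. For Col15a1, with the largest log2 fold change of the called genes at day 14, the 250 bases before the RefSeq start (chr4:47207762-47208011, + strand) hold none of the 3 motifs searched.
Col3a1: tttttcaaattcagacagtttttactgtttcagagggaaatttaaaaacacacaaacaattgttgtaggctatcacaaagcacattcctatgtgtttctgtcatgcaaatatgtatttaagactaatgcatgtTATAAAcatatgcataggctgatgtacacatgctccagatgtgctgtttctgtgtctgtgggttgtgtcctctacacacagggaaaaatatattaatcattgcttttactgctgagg
Col15a1: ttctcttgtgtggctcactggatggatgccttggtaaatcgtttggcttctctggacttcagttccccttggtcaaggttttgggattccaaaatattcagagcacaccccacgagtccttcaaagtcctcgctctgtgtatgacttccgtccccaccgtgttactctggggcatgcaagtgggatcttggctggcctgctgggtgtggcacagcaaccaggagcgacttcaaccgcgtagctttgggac
Both strands were searched for the CCAAT box, for the TATA box written TATAAA and for the GC box written GGGCGG, none of which contains another, in the RefSeq promoters of 22 members. A match is of letters anywhere in the 250 bases, and its function was not tested. GGGCGG stood in 14 of 22, against 32.9% of 27025 mouse promoters of the same length. CCAAT stood in 8 of 22 against 34.5%, and TATAAA in 2 of 22 (Col3a1 and Col13a1) against 12.97%. Among the 5 members called at day 7 that had a promoter in the table, Col3a1 held TATAAA, Col1a2 held the CCAAT box and GGGCGG, Col5a1 held GGGCGG, and Col6a1 and Col6a3 held none.

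In uninjured pancreas the highest collagen level was that of Col3a1. Compared per length of exon, in TMM-scaled CPM per kilobase, its median was 19.7 (15.2 to 31.4 over 8 mice). Col7a1 followed at 13.3 (10.2 to 14.5), and Col4a1 at 12.1 (10.9 to 14.3). The ranges of Col7a1 and Col4a1 overlapped over most of their width, so their order is not resolved. Next came Col4a2 at 7.37, Col6a1 at 6.57, Col1a1 at 4.23 and Col1a2 at 4.21, also with overlapping ranges. With the longest transcript as the length, Col3a1 stood at 34.8 and Col1a2 rose to 9.77, above Col4a2 and Col6a1. At the low end stood Col12a1, Col27a1, Col4a4, Col8a1, Col4a6 and Col4a3, each with a median under 0.2 on the union of exons.

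**Figure D1:**
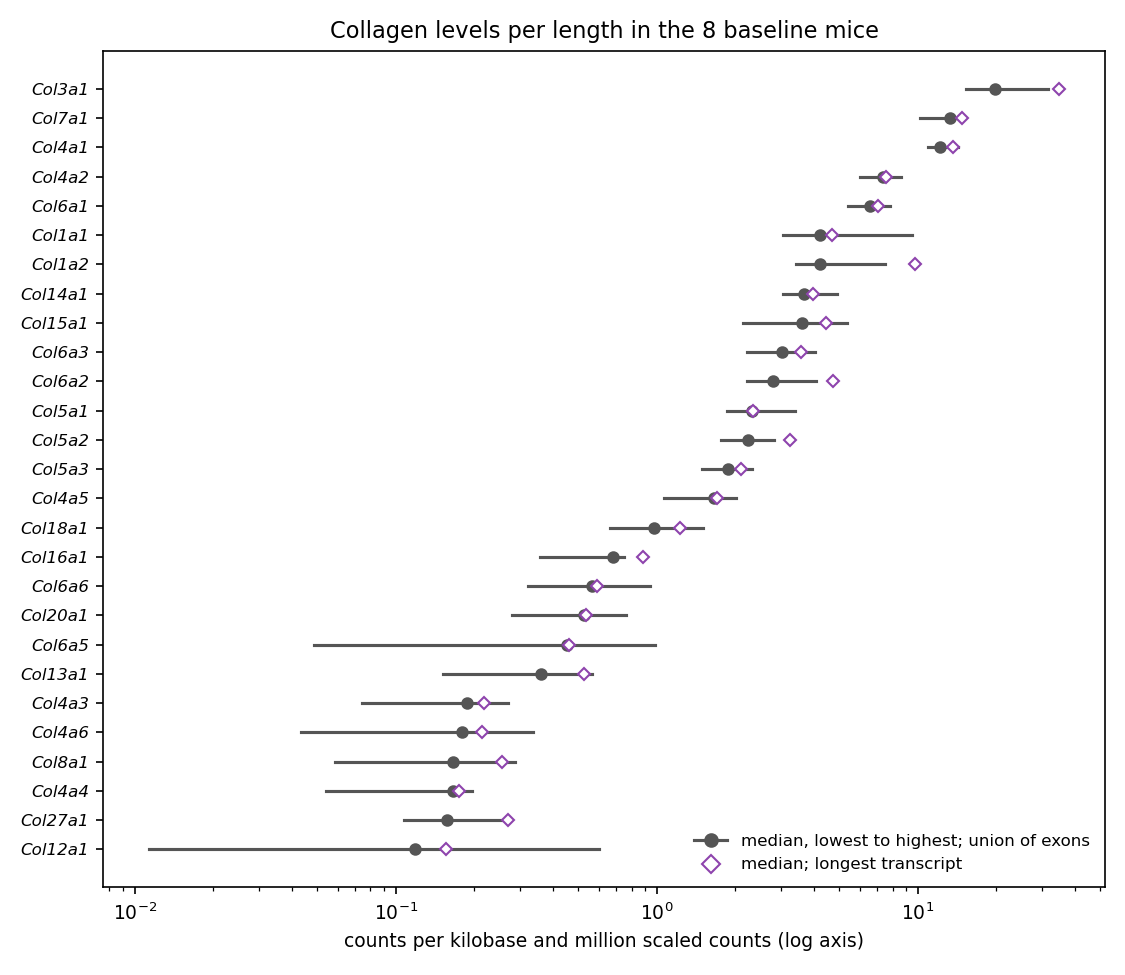
Level of the 27 collagen genes at baseline, in TMM-scaled CPM per kilobase on a log axis; filled points are medians and lines run from the lowest to the highest of 8 mice with the union of exons as length, and open diamonds are medians with the longest transcript. Col3a1 leads at 19.7 and Col12a1 is lowest, with the widest line.

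Spread between mice also differed between collagen genes. The coefficient of variation over the 8 baseline mice was 9.83% for Col4a1, 11.8% for Col7a1 and 12.7% for Col4a2, while it was 24.7% for Col3a1 and 45.4% for Col1a1. For Col6a5 it was 76.7% and for Col12a1 115%. Col4a1, Col4a2 and Col7a1 varied less between uninjured mice than Col3a1 and Col1a1, a difference that was not tested.

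At day 7, most fibrillar chains and the main type VI chains were higher than at baseline. The genes called were all higher than baseline: Col3a1, Col5a2, Col1a2, Col1a1 and Col5a1 among the fibrillar genes, Col6a1 and Col6a3 of type VI, and the FACIT gene Col14a1. That is 8 of 27 members, where 5.05% of all genes tested were called in either direction and 3.78% were called higher. The median log2 fold change was 0.37 over the members and 0.03 over all genes tested. No type IV, multiplexin or type VII gene was called with TMM factors. Without the 4 mice rich in lymphocyte genes, 9 members were called. Under total count scaling 18 were called, all higher, among them Col4a5 and Col4a6 of type IV and both multiplexins. The share of all genes called under that scaling is not given. With each library's mapping rate added to the fit, 4 were called (Col5a2, Col6a1, Col6a2 and Col6a3). The mapping rate was lower in most baseline libraries than in every library of the later days. Fits that include it therefore cannot fully separate it from time point.

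Col3a1, the chain of type III fibrils of soft and healing tissue, had normalized counts of 1302, 1685 and 2685 at baseline (lowest, median, highest), 2481, 3794 and 5605 at day 7 and 1785, 2442 and 3223 at day 14. At day 7, 7 of 8 mice stood above every baseline mouse, and 3 of 7 did at day 14. Its day 7 level was 2.15-fold that of baseline (log2 fold change 1.11 ± 0.17 SE, adjusted p = 0.00015).

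Col5a2, a chain of type V collagen, which starts fibrils and limits their width, had 147, 186 and 234 at baseline, 302, 397 and 554 at day 7 and 236, 289 and 327 at day 14. Every mouse of both later days stood above every baseline mouse. Of all genes tested, 1.15% separated in this direction at day 7 and 0.44% at day 14. The day 7 level was again 2.15-fold (log2 1.11 ± 0.12 SE, adjusted p = 5.08e-07). Its partner Col5a1 had 137, 170.4 and 250.2 at baseline and 240.2, 299.8 and 361 at day 7, with 6 of 8 mice above the baseline range (log2 0.68 ± 0.11 SE, adjusted p = 0.000157). Col5a3, another type V chain, passed the adjusted p at a fold change of 1.36, under the 1.5 threshold (log2 0.44 ± 0.11 SE, adjusted p = 0.00641).

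The type I chains, which make the main fibrils of tendon, skin and bone, rose at day 7 with ranges that overlapped baseline. Col1a2 had 369, 455 and 809 at baseline and 669, 891 and 1177 at day 7, and 6 of 8 mice stood above the baseline range (log2 0.85 ± 0.15 SE, adjusted p = 0.00058). Col1a1 had 174, 242 and 544 at baseline and 335, 488 and 624 at day 7. Only 3 of 8 day 7 mice exceeded the highest baseline mouse (log2 0.71 ± 0.22 SE, adjusted p = 0.0315). For both chains the highest baseline mouse was mouse 5, which is among the 4 rich in lymphocyte genes. The next highest baseline values, both in mouse 4, were 658 for Col1a2 and 422 for Col1a1. The call of Col1a1 was lost when only the mice of baseline and day 7 were fitted, and also without any 1 of 9 mice (1, 2, 6, 7, 8, 10, 13, 14 and 15). Col27a1, a thin-fibril collagen of low count, had a log2 fold change of 0.35 ± 0.20 SE and was not called (adjusted p = 0.255).

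In type VI, the mice of both later days stood apart from baseline for Col6a1 and Col6a3. Col6a1 had 207, 250.4 and 298 at baseline, 386, 456 and 513 at day 7 and 303, 365 and 428 at day 14. Col6a3, whose chain carries the long tail from which the peptide endotrophin is cut, had 231, 314 and 420.4 at baseline, 497, 561 and 619.5 at day 7 and 434, 476 and 553 at day 14. In both genes every mouse of day 7 and of day 14 stood above every baseline mouse. The day 7 fold changes were 1.79 for Col6a1 (adjusted p = 3.87e-07) and 1.78 for Col6a3 (adjusted p = 7.73e-07). Col6a2, which pairs with Col6a1 and Col6a3 in the classical type VI molecule, passed the adjusted p at a fold change of 1.48 (adjusted p = 0.000106). Col6a6 had a log2 fold change of 0.38 ± 0.17 SE that was not called (adjusted p = 0.115).

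Col14a1, a FACIT collagen of fibril surfaces, had 186, 224 and 298 at baseline, 308, 476 and 501 at day 7 and 235, 318 and 492 at day 14. All 8 mice at day 7 stood above the baseline range, as 4 of 7 did at day 14. Its log2 fold change at day 7 was 0.97 ± 0.16 SE (adjusted p = 0.000279). At day 14 it was 0.63 ± 0.16 SE, or 1.54-fold (adjusted p = 0.0651 in edgeR), and DESeq2 called it. In the same class, Col20a1 went the other way without a call, with 12.5, 23.5 and 34.0 at baseline and 12.0, 20.3 and 29.0 at day 7 (log2 -0.22 ± 0.19 SE, adjusted p = 0.455). Col16a1 was at log2 0.31 ± 0.15 SE (adjusted p = 0.166).

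**Figure D2:**
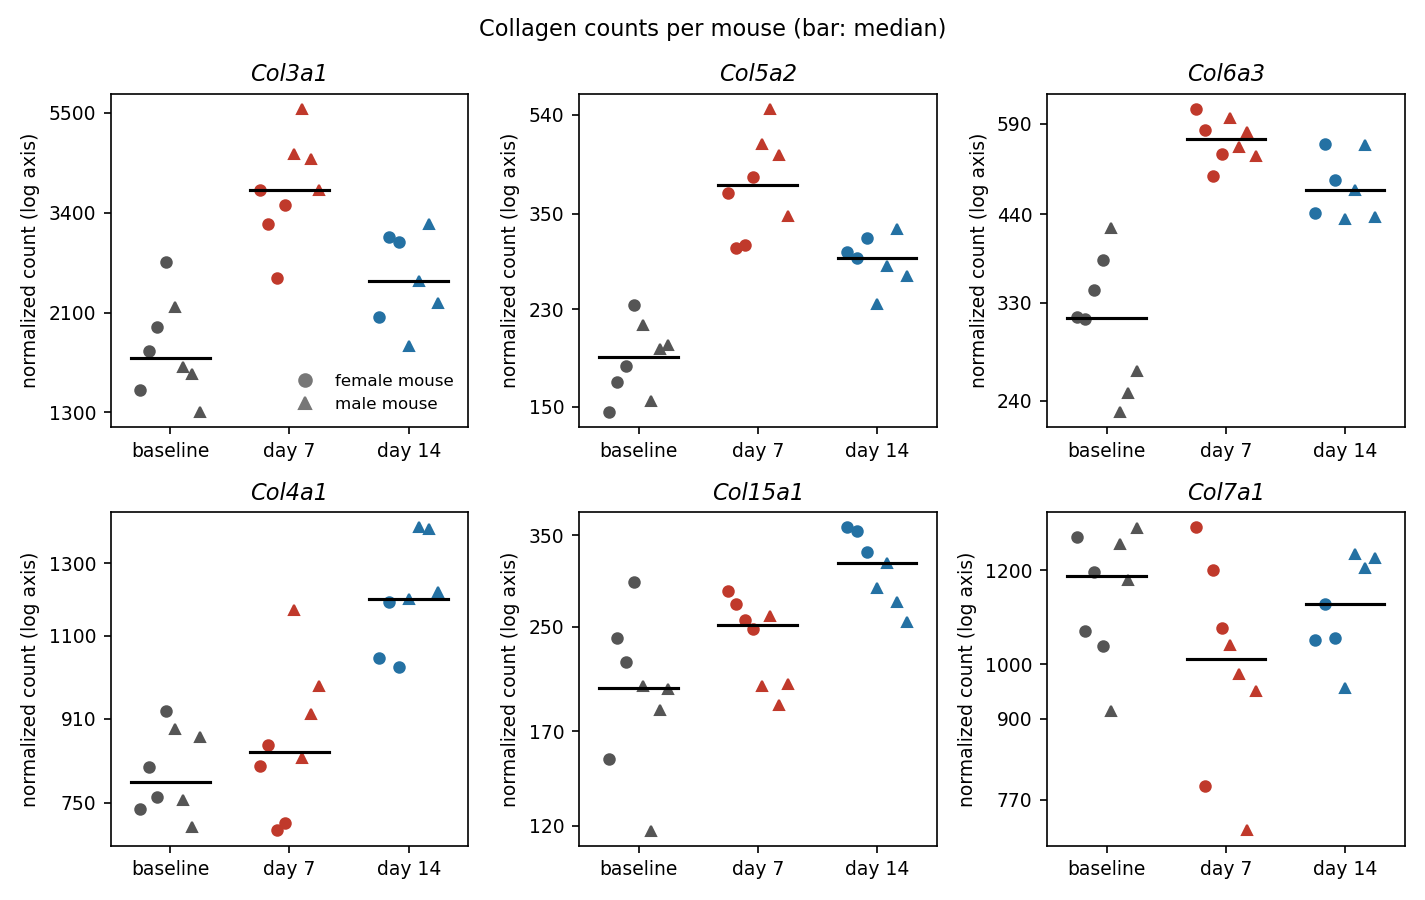
Normalized count on a log axis for 6 collagen genes in each mouse at baseline, day 7 and day 14; circles are females, triangles males and bars medians. Col3a1, Col5a2 and Col6a3 stand highest at day 7, Col4a1 and Col15a1 at day 14, and Col7a1 overlaps at all times.

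No type IV chain passed the adjusted p at day 7. Col4a1, a chain of the type IV network found in most basement membranes, had 709, 787 and 926 at baseline and 704, 844 and 1168 at day 7. The groups overlapped, with 2 day 7 mice above the baseline range and 1 below it (log2 0.10 ± 0.08 SE, adjusted p = 0.403). Col4a2, its partner, had 346, 424 and 496 at baseline and 353, 423 and 509 at day 7 (adjusted p = 0.998). The other type IV chains, Col4a3 to Col4a6, are those of specialised basement membranes such as the glomerulus, and their adjusted p was at least 0.26 at day 7. Col4a5 was the most abundant of them, with 62.1, 96.4 and 118 at baseline and 75.8, 111 and 133 at day 7.

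Type VII, type VIII and transmembrane members were not called at any time with TMM factors, while under total count scaling Col8a1 was called higher at day 7 than at baseline and lower at day 14 than at day 7. Col7a1, the anchoring fibril chain, had 914, 1187 and 1301 at baseline, 725, 1010.0 and 1304 at day 7 and 955, 1123 and 1237 at day 14. At day 7 it was at log2 -0.20 ± 0.10 SE with 2 mice below the baseline range and 1 above it (adjusted p = 0.173). The 2 below were mice 10 and 15, at 791 and 725. The lowest values at baseline and at day 14 were those of mice 5 and 21. All 4 are the mice rich in lymphocyte genes, and their part in the Col7a1 values was not tested. Col8a1, a network collagen of vessel walls, had 4.0, 11.3 and 19.5 at baseline and 7.79, 17.2 and 22.2 at day 7, near the count floor (adjusted p = 0.119). Col13a1, a transmembrane collagen of cell adhesion sites, had 6.11, 14.4 and 22.6 at baseline and 9.5, 11.4 and 17.5 at day 7 (adjusted p = 0.63). Under total count scaling all 27 members had a positive log2 fold change at day 7, Col7a1, Col13a1, Col20a1, Col4a2 and Col4a4 included, where 22 were positive with TMM factors, against 55% of all genes. Relative to the median of all genes, 22 were positive under both.

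At day 14 fewer collagen genes were called, and Col15a1 was among them. Those called higher than the same baseline mice were Col15a1, Col6a3 and Col5a2, that is 3 of 27 where 0.744% of all genes tested were called and 0.68% were called higher. On the adjusted p alone, 8 of 27 passed against 1.28% of all genes, all of them higher as 1% of all genes were, and the added genes were Col4a1, Col4a2, Col5a3, Col6a1 and Col6a2. The median log2 fold change was 0.37 over the members and 0.02 over all genes. The count of calls rested on few mice: it was 0 without baseline mouse 6 (7 members still passed the adjusted p), and 1 without baseline mouse 1 or day 14 mouse 23. Without the 4 mice rich in lymphocyte genes it was 5, Col6a1 and Col14a1 being added. DESeq2 called 4, Col14a1 being added, with 10 passing the adjusted p. Total count scaling gave 13, all higher, and adding the mapping rate gave 0, with 0 passing the adjusted p.

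Col15a1, a multiplexin of basement membrane borders around vessels and muscle, had 118, 199.6 and 295 at baseline, 187, 252 and 285 at day 7 and 254, 316 and 361 at day 14. At day 7 no mouse stood above the baseline range (log2 0.25 ± 0.10 SE, adjusted p = 0.105). At day 14, 4 of 7 did, and the fold change was 1.57 (log2 0.65 ± 0.11 SE, adjusted p = 0.000972). Col6a3 at day 14 was 1.54-fold baseline (log2 0.62 ± 0.10 SE, adjusted p = 0.000502). Col5a2 was 1.53-fold baseline (log2 0.61 ± 0.12 SE, adjusted p = 0.00559).

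Col4a1 at day 14 had 1024, 1198 and 1412, with all 7 mice above every baseline mouse. Its fold change against baseline was 1.48, just under the threshold (log2 0.56 ± 0.08 SE, adjusted p = 0.000267). Col4a2 had 473, 594 and 744, with 5 of 7 mice above the baseline range (log2 0.47 ± 0.09 SE, adjusted p = 0.00469). Both chains of the main type IV molecule, whose genes start at the 22 shared bases shown above, were higher at day 14 by the adjusted p and short of the 1.5-fold rule. The other 4 type IV chains did not pass the adjusted p, which was at least 0.551. Col3a1 and Col1a1, called at day 7, were at log2 0.48 ± 0.17 SE (adjusted p = 0.214) and 0.19 ± 0.23 SE (adjusted p = 0.829) at day 14. Within type VI, Col6a5 lay opposite to the called Col6a3, at log2 -0.92 ± 0.62 SE (adjusted p = 0.599). Col18a1, the other multiplexin and the source of endostatin, had a median of 59.9 at baseline and 66.1 at day 14 (adjusted p = 0.848). It shares 8825 bases with Slc19a1 on the opposite strand, and the strand setting of the counting is not given in the sources used here.

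**Figure D3:**
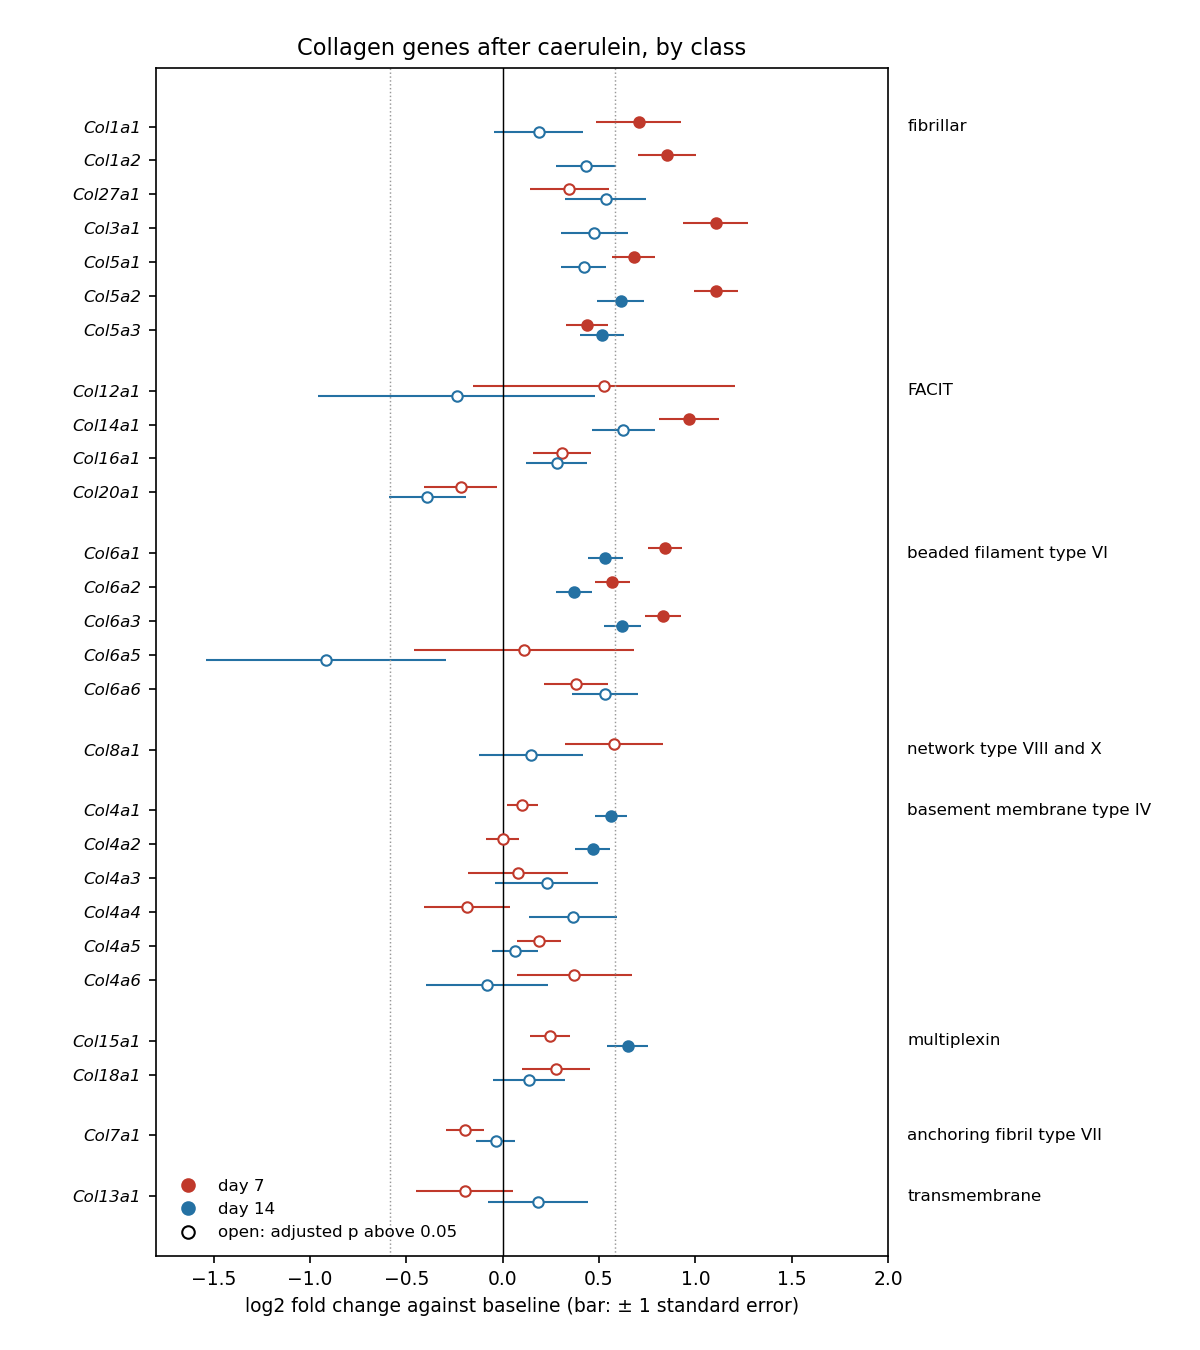
Log2 fold change against baseline of the 27 members by class, at day 7 in red and day 14 in blue, with bars of 1 standard error on each side; filled points have an adjusted p of at most 0.05 and dotted lines mark 1.5-fold. Col3a1, Col5a2 and Col14a1 lie furthest right at day 7, and Col4a1, Col4a2 and Col15a1 lie further right at day 14.

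The post-injury days were also compared with each other, which uses no baseline mouse in the contrast. No member met both thresholds in edgeR's test, where 0.384% of all genes did. An unadjusted p under 0.05, for which no share of all genes is given, was found for 13 of 27. DESeq2 called 1, Col3a1, which was lower at day 14, and edgeR called the same gene without baseline mouse 4 or without day 7 mouse 11. On the adjusted p alone 4 members passed, 3 higher and 1 lower, against 1.22% of all genes, 0.976% higher and 0.248% lower. Higher at day 14 were Col4a1 (log2 0.46 ± 0.08 SE, adjusted p = 0.00266), Col4a2 (log2 0.47 ± 0.09 SE, adjusted p = 0.00592) and Col15a1 (log2 0.40 ± 0.10 SE, adjusted p = 0.0488). At day 14, 5 of 7 mice stood above every day 7 mouse for each of these genes. Col5a2 was lower, at log2 -0.49 ± 0.11 SE (adjusted p = 0.0283), with 5 of 7 mice below every day 7 mouse. Under total count scaling Col4a1, Col4a2 and Col15a1 no longer passed, at log2 0.21, 0.22 and 0.15, while the median of all genes stood at -0.26 there. Under that scaling 6 members were called, all lower. Col3a1 was at log2 -0.63 ± 0.17 SE (adjusted p = 0.0753).

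The balance of classes within the collagen counts followed these genes. Fibrillar members took 43.4% ± 4.47 (SD, n = 8) of all collagen member counts at baseline, 56.0% ± 4.18 (n = 8) at day 7 and 45.2% ± 3.13 (n = 7) at day 14. Type IV members took 19.4% ± 1.89, 13.3% ± 1.51 and 20.9% ± 2.79. Every day 7 mouse lay below every mouse of baseline and of day 14 in the type IV share, whose highest day 7 value was 15.1% and whose lowest values were 17.5% at baseline and 16.5% at day 14. The type VI share was 12.0% ± 0.594, 13.1% ± 0.876 and 12.9% ± 0.619. Col7a1 alone took 16.7% ± 3.69 at baseline and 9.39% ± 2.55 at day 7. These shares are counts, not per length, and a share falls where other classes rise.

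As a share of the whole library, the 27 members together took 0.0710% ± 0.0164 (SD, n = 8) of counts at baseline, 0.149% ± 0.0268 at day 7 and 0.107% ± 0.0117 at day 14. The fibrillar share at day 7 was 2.69 times its baseline mean, and the type VI share 2.27 times. For type IV the ratio was 1.44 at day 7 and 1.63 at day 14. Taken over the counts outside the 20 most abundant genes, the ratios at day 7 were 2.08 for fibrillar, 1.75 for type VI and 1.11 for type IV. At day 14 they were 1.37, 1.41 and 1.43.

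**Figure D4:**
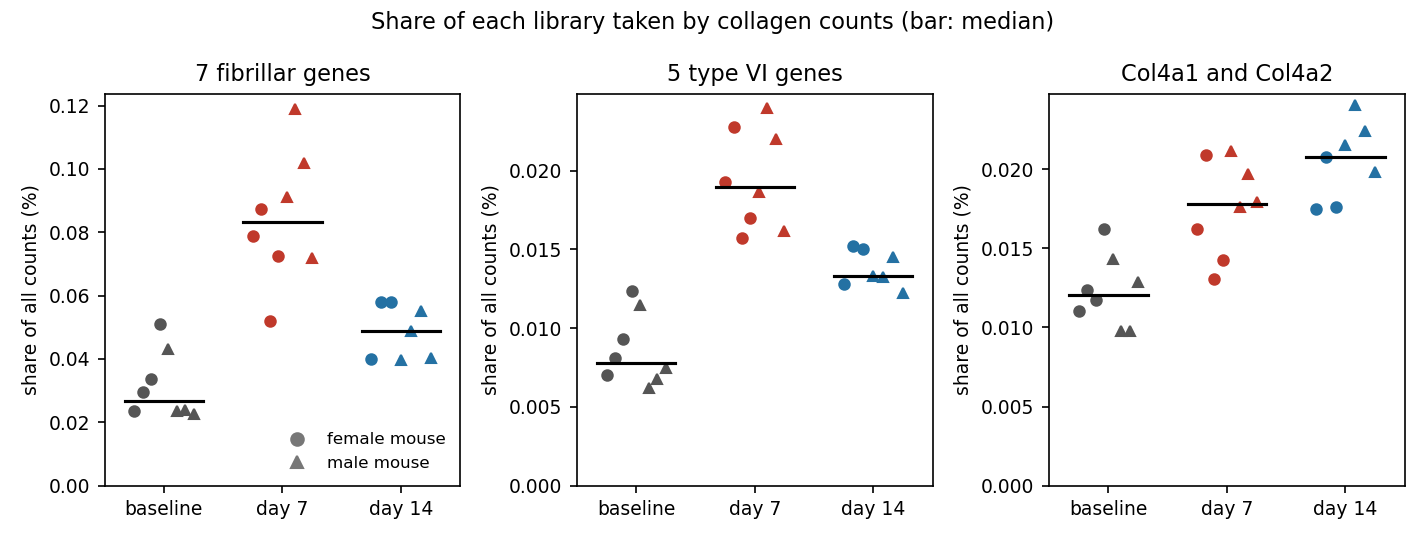
Share of all counts of a library, in percent, taken by the 7 fibrillar genes, the 5 type VI genes, and Col4a1 with Col4a2; each point is a mouse (circles female, triangles male) and bars are medians. The fibrillar and type VI shares peak at day 7, where each of the 8 mice lies above every baseline mouse, and the share of Col4a1 and Col4a2 is highest at day 14.

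Count ratios of chains that assemble into 1 molecule moved less between time points than the ratio of a type IV to a fibrillar chain. Col4a1 over Col4a2 had a mean of 1.92 ± 0.135 (SD) for baseline, 2.04 ± 0.124 for day 7 and 2.05 ± 0.109 at day 14. Col1a1 over Col1a2, the chains of type I collagen, was 0.561 ± 0.112, 0.526 ± 0.0436 and 0.487 ± 0.0325 in the same order. Col6a1 over Col6a2 was 1.26 ± 0.160, 1.496 ± 0.129 and 1.38 ± 0.109. Col1a1 over Col3a1, fibrillar chains of different molecules, was 0.158 ± 0.0448, 0.126 ± 0.0156 and 0.137 ± 0.0217. A small shift was therefore not particular to chains of 1 molecule. Between classes, Col4a1 over Col3a1 was 0.464 ± 0.0982 at baseline, then 0.231 ± 0.0447 at day 7 and, later, 0.499 ± 0.114 at day 14. Its highest value at day 7 was 0.284, below the lowest at baseline (0.345) and at day 14 (0.346). Ratios are of counts and carry the lengths of both genes.

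Enzymes that process secreted procollagen were higher at day 7 than at baseline. Of 16 listed genes with counts that cleave propeptides or crosslink fibrils, 12 were tested. Of these 12, 7 were called higher at day 7, none lower, where 3.78% of all genes were called higher. Their median log2 fold change was 0.60. Lox, which oxidises lysines for crosslinks, was at log2 1.07 ± 0.19 SE (adjusted p = 0.000327), and its relatives Loxl3 at 0.86 and Loxl1 at 0.60. Adamts2, the N-propeptidase of fibrillar procollagens, was at 0.80, Bmp1, the C-propeptidase, at 0.64, and the enhancers of that cleavage Pcolce2 and Pcolce at 0.81 and 0.60. DESeq2 also called 7 genes of this list higher at day 7, with Adamts14 and without Pcolce. At day 14 edgeR and DESeq2 called 0 of them, the smallest adjusted p was 0.0595, and 6 had an unadjusted p under 0.05. Under total count scaling 9 of them were called at day 7 and 4 at day 14, all higher. With the mapping rate as a covariate, 0 of them were called at day 7.

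Of 20 genes for folding and modifying collagen chains, 19 were tested and 2 were called higher at day 7, against 3.78% of all genes. These were Plod2, which hydroxylates lysines of the telopeptide ends (log2 1.11 ± 0.17 SE, adjusted p = 4.73e-05), and Rcn3, a chaperone of the endoplasmic reticulum (log2 0.89 ± 0.22 SE, adjusted p = 0.00588). Serpinh1, the collagen chaperone HSP47, passed the adjusted p at log2 0.54, with all 8 mice above the baseline range. Mia3, which helps to export procollagen, passed in the other direction at log2 -0.25, a sign that turned under total count scaling (0.20). The median over the list was 0.10, near that of all genes (0.03). At day 14 none of the 19 was called by edgeR or DESeq2, the smallest adjusted p was 0.213, and 2 had an unadjusted p under 0.05. Plod2 was called lower at day 14 than at day 7 by edgeR (log2 -0.69 ± 0.17 SE, adjusted p = 0.0338) and not by DESeq2.

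Of 10 genes that degrade collagen or restrain its degradation, 7 were tested, of which 3 were called higher at day 7 and 2 at day 14, against 3.78% and 0.68% of all genes. Mmp2 and Mmp14, a gelatinase and the membrane protease that activates it, were called higher at both days, at log2 1.16 and 1.08 at day 7 and 0.79 and 0.66 at day 14. At day 7 all 8 mice stood above the baseline range for both genes. Ctsk, which encodes the collagenase cathepsin K, was called at day 7 (log2 0.78 ± 0.20 SE, adjusted p = 0.00648). Timp2, an inhibitor, passed the adjusted p at log2 0.43. Another inhibitor, Timp1, was not among the genes tested with edgeR, and DESeq2 called it higher at day 7. Among 9 collagen receptors tested of 10 listed, none was called at either day by edgeR or DESeq2. An unadjusted p under 0.05 was found for 5 at day 7 and for 2 at day 14. The smallest adjusted p values at day 7 were those of Ddr2, a receptor for fibrillar collagen (log2 0.49, adjusted p = 0.0077), and Itgb1, the shared integrin chain (log2 0.18, adjusted p = 0.0121).

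The partners of type IV collagen in basement membranes moved in both directions at day 7. Of 12 genes 11 were tested, 5 passed the adjusted p higher (8.7% of all genes did) and 4 lower (8.93% did), and the 3 called were all higher, against 3.78% of all genes: Nid1, which bridges laminin and type IV (log2 0.86 ± 0.11 SE), Lama2 (0.76 ± 0.08 SE) and Lamb1 (0.61 ± 0.08 SE). For each of the 3, all 8 mice stood above the baseline range. Laminin chains of epithelial basement membrane and the proteoglycans were lower without a call, Lama3 at -0.41, Hspg2 at -0.37, Agrn at -0.31 and Lama5 at -0.25. Under total count scaling these 4 signs turned (0.03, 0.06, 0.13 and 0.19), and 7 genes of the list were called, all higher. At day 14 Nid1 was still called (log2 0.67 ± 0.12 SE, adjusted p = 0.00204), and Lama2, Lama4 and Lamb1 passed the adjusted p. Hspg2, which encodes perlecan, was higher at day 14 than at day 7 by the adjusted p (log2 0.45 ± 0.10 SE, adjusted p = 0.0241, and log2 0.20 with adjusted p = 0.23 under total count scaling), as Col4a1 and Col4a2 were.

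Cell type markers moved beside the collagen genes. Several of them, such as Lum, Pdgfra, C1qa and Ins1, were already among the changed genes that the study reported. Of 9 fibroblast and stellate cell markers, 6 were called higher at day 7 and 3 at day 14, where 3.78% and 0.68% of all genes were. Under total count scaling 7 and 5 of the markers were called higher. The shares of all genes in this paragraph are with TMM factors and do not apply to counts under total count scaling. Their summed normalized count ran from 1156 to 2460 in baseline mice, 2426 to 3683 in day 7 mice and 1919 to 3124 in day 14 mice. Pdgfra, a receptor that defines fibroblasts, was at log2 0.88 at day 7 and 0.64 at day 14. Of 10 acinar markers, 4 were called lower at day 7, where 1.26% of all genes were (5 by DESeq2, 0 under total count scaling). At day 14, 0 were called lower (0.064% of all genes were), 3 passed the adjusted p as lower (0.28% of all genes did), and 7 had an unadjusted p under 0.05. Endothelial markers stood at medians of the summed count of 731 at baseline, 590 at day 7 and 830 at day 14. Of these 7 genes Cdh5 and Kdr passed the adjusted p as lower at day 7, as 8.93% of all genes did. They were at log2 -0.52 and -0.35, against -0.04 and 0.12 under total count scaling. Cdh5 and Emcn were called higher at day 14 than at day 7, where 0.384% of all genes were called in either direction. DESeq2 called Cdh5 and not Emcn. Esam and Kdr also passed the adjusted p between these days, as 1.22% of all genes did in either direction. Under total count scaling no endothelial gene was called between the days, Emcn being at log2 0.41 and Cdh5 at 0.43. For day 7, set against the same 3.78% of all genes, macrophage markers were called higher for 6 of 8 genes (8 under total count scaling), with sums of 448 to 1693 at baseline and 1091 to 2467 at day 7. Islet markers were called higher for 4 of 7 genes at day 7, or 6 under total count scaling (sum 1130 to 4789 at baseline, 3267 to 9713 at day 7), and duct and Schwann cell markers for 1 gene each (Krt7 and Cdh19). Of the smooth muscle, adipocyte, mesothelial and lymphocyte markers, none was called at day 7 or day 14 by edgeR or DESeq2. Among them, 1 mesothelial gene had an unadjusted p under 0.05 at day 7, and 2 mesothelial and 1 smooth muscle gene did at day 14. At day 14, edgeR and DESeq2 also called 0 macrophage, islet, endothelial, duct and Schwann cell genes, of which 2, 4, 1, 0 and 1 had an unadjusted p under 0.05. Under total count scaling 4 islet genes (Iapp, Ins1, Ins2 and Sst) were called higher at day 14 and none of the other 4 lists were. That scaling also called 2 smooth muscle genes, 1 mesothelial gene, 1 endothelial gene (Tek) and a second Schwann cell gene higher at day 7. No listed marker was at 0 in all mice of a group. The part of these cell types in the collagen values was not tested.

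Between male and female mice, with time point as a covariate, no collagen gene met both thresholds in edgeR's test, where 0.224% of all genes did. An unadjusted p under 0.05 was found for 7 members. Col6a5, a type VI chain of skin and other epithelia, had the largest difference, with normalized counts of 3.91, 7.49 and 42.8 in 11 females and normalized counts of 10.5, 42.8 and 222 in 12 males over all time points. The ranges overlapped, and the male to female log2 fold change was 2.09 ± 0.50 SE (adjusted p = 0.0701). DESeq2 called 1 member, this gene. It was also called by edgeR without baseline mouse 4 or without baseline mouse 8. The highest male value, 222, was that of day 7 mouse 14, with 69.0 in the next day 7 mouse. Of the 4 mice rich in lymphocyte genes, males 5, 15 and 21 had Col6a5 at 80.7, 69.0 and 57.6, and female 10 had 21.5. The part of these mice in the difference between the sexes was not tested. Col15a1 was lower in males (log2 -0.33 ± 0.09 SE, adjusted p = 0.0881), as was Col5a3 (log2 -0.33 ± 0.09 SE, adjusted p = 0.125).

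The change from baseline was not shown to differ between the sexes. No member passed the interaction of sex with day 7 (smallest adjusted p = 0.917, 5 members with an unadjusted p under 0.05) or with day 14 (smallest adjusted p above 0.99, 1 member), in a fit of 12933 genes, nor in DESeq2. Of all genes, 0.00773% passed at day 7 and 0% at day 14. Col3a1 had the lowest unadjusted p at day 7 (0.0211). Its range was 1446 to 2685 in females and 1302 to 2159 in males at baseline, and 2481 to 3796 and 3792 to 5605 at day 7. The size of interaction that could pass with 3 or 4 mice of a sex at a time point was not measured.

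Col12a1 and the non-member Col6a4 followed individual mice rather than time. Col6a4 had 24 counts in baseline mouse 5, 41 and 13 in day 7 mice 10 and 15, and 11 in day 14 mouse 21, against 0 to 6 in the other 19 mice. Col12a1, a FACIT collagen of tendon and other dense tissue, had 75, 186, 62 and 54 counts in the same 4 mice and 1 to 25 in the others. These are the 4 mice with the highest summed lymphocyte counts, 1150 to 2132. Its log2 fold change was 0.53 ± 0.68 SE at day 7 (adjusted p = 0.635) and -0.24 ± 0.72 SE at day 14 (adjusted p = 0.948). Col3a1 did not separate these mice, with normalized counts of 1785 to 4400 in the 4 and 1302 to 5605 in the other 19. The 4 mice came from every time point and from both sexes. The part of lymphoid tissue in the values of Col12a1 and Col6a4 was not tested.

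**Figure D5:**
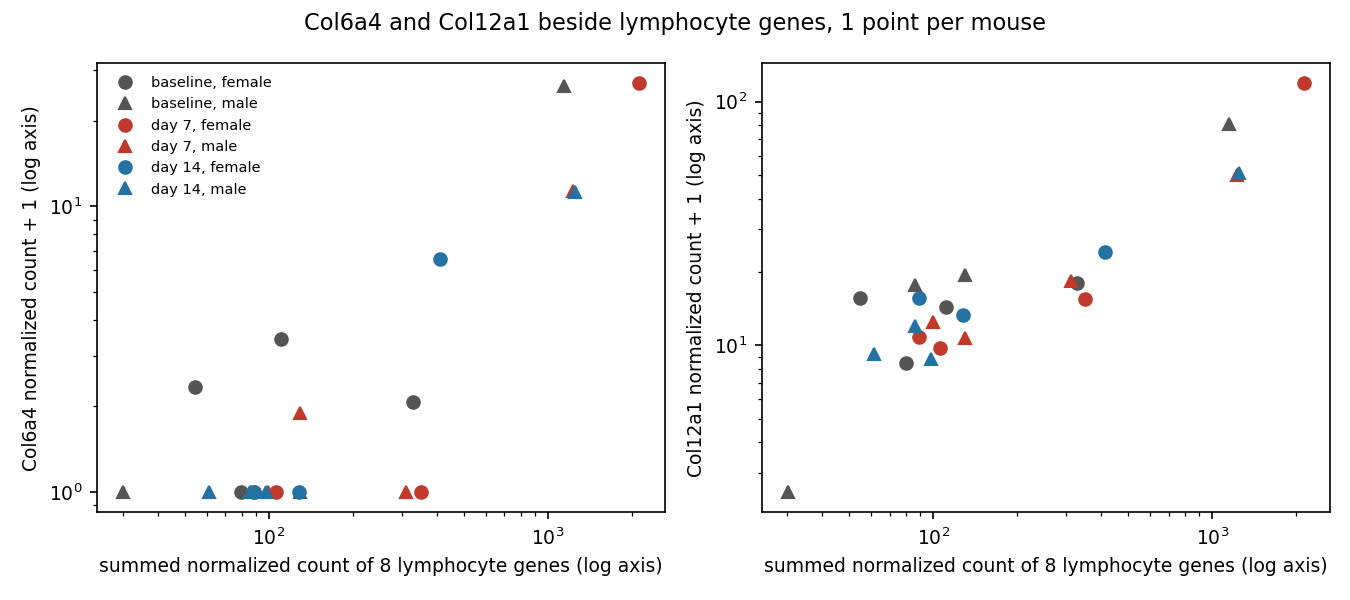
Normalized count plus 1 of Col6a4 (left) and Col12a1 (right) against the summed normalized count of 8 lymphocyte genes, on log axes, with 1 point per mouse. The 4 mice with sums of 1150 to 2132 hold the 4 highest values of both genes.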

How the data were processed

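RNA-seq was done on the head of the pancreas of 23 mice. To make the deposited counts, the authors depleted total RNA of ribosomal RNA, sequenced paired reads, trimmed them, aligned them to mm10 with STAR 2.5.2a and counted fragments per gene symbol with featureCounts; the annotation and strand setting are not given in the sources used here. All values were whole numbers.

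After TMM scaling (factors 0.768 to 1.436), the counts were fitted by edgeR 4.0.16 (limma 3.58.1, R 4.3.3) in a single model of 23 mice, time point and sex, on 12500 genes kept by filterByExpr, with robust glmQLFit and two-sided glmQLFTest. Interactions used 1 coefficient for each of 6 groups of sex and time point and were judged by the adjusted p alone. The SE is the absolute log2 fold change over the square root of F. The test was tested on simulated data with 200 planted genes. Lengths and positions came from GENCODE vM21, promoters from RefSeq (GRCm38.p6). Alternatives were DESeq2 1.42.0, other scalings, filters and covariates (the mapping rate came from the study's supplement), and leaving out each mouse. The members and lists were chosen with earlier results of these data known. Named were called genes, the most abundant member of each class, members opposite to called ones in their class, and list genes that were called or, where none was, had the smallest adjusted p; Serpinh1, Mia3, Timp2, Pdgfra and the other genes named outside this rule were chosen after their values were seen. Lists of fibroblast, smooth muscle, endothelial, acinar, duct, islet, adipocyte, Schwann cell, mesothelial, macrophage and lymphocyte markers are described by counts.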

Additional observations from a re-analysis of the deposited data

Results flagged for a closer look

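In each time point, the highest and lowest normalized count of each of the 27 members were compared with Dixon's 95% critical value; 5 of 81 sets of values were past it, where chance alone flags about 1 in 20. Col12a1 stood out at all 3 times, with 79.6 in baseline mouse 5 (next highest 18.4), 118 in day 7 mouse 10 (next highest 49.2) and 50.1 in day 14 mouse 21 (next highest 23.2). These 3 mice are among the 4 with the highest summed lymphocyte counts. Col6a5 reached 222 in day 7 mouse 14, a male, against 69.0 in the next mouse. Col18a1 reached 122 in day 14 mouse 19, a female, against 73.4 in the next mouse.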

How the results depend on the processing

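Of 726 refits of the 22 collagen fold changes that passed the adjusted p (220 with another tool, scaling, filter, covariate or set of mice, 506 leaving out 1 mouse), 646 kept direction and side of the adjusted p of 0.05, 80 kept direction only, and none turned. The total is mostly fits that leave out 1 mouse. With the mapping rate as a covariate, 16 of the 22 fold changes no longer passed. Leaving out 1 mouse gave 7 to 9 collagen genes called at day 7, 0 to 4 at day 14, 0 to 1 for day 14 against day 7, 0 to 1 for sex, and 0 for both interactions.

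Total count scaling gave 18 collagen genes at day 7, 13 at day 14 and 6 between the days; among the lists it gave 9 folding, 5 receptor, 5 degradation and 7 basement membrane genes at day 7, and 1 folding, 4 processing, 1 receptor and 5 basement membrane genes at day 14. The mapping rate as a covariate gave 4 collagen genes at day 7 and 0 at day 14, with 1 folding and 0 processing genes at day 7 and 0 degradation genes at day 14. That covariate differed between most baseline mice and the later days, so this fit cannot fully separate it from time point. DESeq2 gave 4 collagen genes at day 14, 1 between the days and 1 for sex. Without a fold threshold there were 8 at day 14 and 4 between the days. Leaving out the 4 mice high in Col6a4 and Col12a1, a choice made after seeing the data, gave 5 at day 14. Over the counts outside the 20 most abundant genes, the type VI share was 1.75 and 1.41 times baseline at days 7 and 14, and the type IV share 1.11 and 1.43 times. With the longest transcript, baseline levels were 34.8 for Col3a1, 13.7 for Col4a1 and 9.77 for Col1a2. The cause of these changes was not tested, except that fewer or more genes pass where a threshold is moved. No paired analysis was possible because mouse numbers are not shared between groups. Members near 10 counts are limited by depth.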
